A study of Mus musculus with 48 samples.

Results

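The genes described here are the subunits of the proteasome, measured in the livers of 48 mice fed diets that differed in protein, carbohydrate, fat and energy content. The list held 36 subunits of the 20S core, the immunoproteasome, the base and lid of the regulatory particle, and the 11S activator. Each gene was read from its probe set with 1 gene symbol and the highest mean over all arrays, and 35 of the 36 had such a probe set, out of 22180 genes measured in all. All 35 passed the filter on low values, which 16926 genes passed. Psma4, an alpha ring subunit, had no probe set with a single symbol and was not analysed here.

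The proteasome is the main protease of the cytosol and nucleus. Its barrel-shaped 20S core is made of outer alpha rings, which gate the entrance, and inner beta rings, in which Psmb5, Psmb6 and Psmb7 carry the proteolytic sites. In cells exposed to interferon, and in cells of the immune system, these are replaced by Psmb8, Psmb9 and Psmb10, which form the immunoproteasome and favour peptides that bind class I molecules. The regulatory particle caps the core: the ATPases of its base unfold the substrate, other base subunits bind ubiquitin chains, and the lid removes ubiquitin. The 11S activator is an alternative, interferon-inducible cap. In liver the proteasome degrades short-lived and damaged proteins, beside autophagy, which is known to degrade much hepatic protein during fasting.

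Whole liver RNA was hybridised to Affymetrix expression arrays, 1 array per mouse. Mice of both sexes were housed 3 per cage, given 1 diet ad libitum from 3 weeks of age and killed at 15 months. A diet is named by the percentage of its energy from protein, carbohydrate and fat, in that order, and by its energy level (low, medium or high). There were 20 combinations, the genotype or strain and the sex of each mouse were not given in the labels, and no untreated group was included. The low energy diets were 23/38/38 (n = 1), 42/29/29 (n = 1) and 60/20/20 (n = 3). The medium energy diets were 14/29/57 (n = 1), 14/57/29 (n = 2), 23/38/38 (n = 3), 33/20/47 (n = 3), 33/47/20 (n = 2) and 42/29/29 (n = 3). The high energy diets were 5/20/75 (n = 2), 5/48/48 (n = 4), 5/75/20 (n = 4), 14/29/57 (n = 4), 14/57/29 (n = 2), 23/38/38 (n = 3), 23/65/12 (n = 2), 33/20/47 (n = 2), 33/47/20 (n = 2), 42/29/29 (n = 1) and 60/20/20 (n = 3). All 10 mice at 5% protein were on high energy diets, so the comparison of 5% with higher protein was made within high energy.

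Values are log2 expression as deposited, and a difference of 1 is a doubling. Array medians lay between 1.57 and 1.86. The interquartile range (IQR) of an array, which measures how widely its probe set values are spread, ran from 2.78 to 3.63. It averaged 3.48 ± 0.13 in the 5% protein mice and 3.18 ± 0.21 in the other high energy mice (SD, n = 10 and 19), and many results below are given with and without it. The mean of 7 hepatocyte markers lay between 12.2 and 12.5 in every high energy mouse, near the top of the scale. The single mouse on the medium energy 14/29/57 diet stood apart: its 8 macrophage markers averaged 10.3, whereas no high energy mouse exceeded 8.14. The energy differences, the slopes of the immunoproteasome genes and the correlations it moved most are given with and without it.

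The promoters of 2 pairs of a catalytic subunit and its inducible counterpart are shown because these pairs are set against each other in the results. They come from RefSeq (GRCm38.p6), which held a window for 29 of the 35 members, reaching from 250 bases before to 50 bases after the start of the gene. Printed are the 150 bases before the start, on the strand of the gene, 5′ to 3′. Capitals mark TGACNNNGC, the core of the antioxidant response element, in Psmb5 (chr14:54617996-54618145, minus strand) and Psmb6 (chr11:70525207-70525356, plus strand). They mark TTCNNNGAA, the letters of a gamma-activated site, in Psmb8 (chr17:34198045-34198194, plus strand), and the reverse complement of CCAAT in Psmb9 (chr17:34187331-34187480, minus strand).
Psmb5: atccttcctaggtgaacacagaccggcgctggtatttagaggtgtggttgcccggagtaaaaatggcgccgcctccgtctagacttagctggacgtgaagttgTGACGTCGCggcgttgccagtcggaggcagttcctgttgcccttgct
Psmb6: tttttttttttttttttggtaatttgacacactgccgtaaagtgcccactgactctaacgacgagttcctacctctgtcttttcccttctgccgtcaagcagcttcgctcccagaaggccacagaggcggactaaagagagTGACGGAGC
Psmb8: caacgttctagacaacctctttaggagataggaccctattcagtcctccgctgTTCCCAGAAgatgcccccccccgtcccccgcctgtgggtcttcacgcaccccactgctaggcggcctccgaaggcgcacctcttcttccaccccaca
Psmb9: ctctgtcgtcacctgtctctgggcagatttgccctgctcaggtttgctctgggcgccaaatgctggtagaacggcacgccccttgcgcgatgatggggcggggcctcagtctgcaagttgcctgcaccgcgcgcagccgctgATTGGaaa

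Searched on both strands of the full windows, each motif on its own so that overlapping motifs each count, TGACNNNGC occurred in Psmb5, Psmb6, Psmc6 and Psmd12, and in 12.4% of all 32851 promoter windows. The interferon response element (GAAA, 2 bases of any kind, then GAAA) occurred in Psmb3, Psmd4 and Psme1, and in 3.44% of all windows. TTCNNNGAA occurred in Psmb8 and Psmd2, and in 8.30% of all windows. CCAAT occurred in 11 of the 29 members and in 37.4% of all windows. A match is a description of these letters.

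Most subunits read well above the median of their arrays. Psma3, an alpha ring subunit, had the highest mean of the members at 9.54 ± 0.24, followed by Psma7 at 8.91 ± 0.42 and the lid subunit Psmd11 at 8.90 ± 0.20 (SD, n = 48 mice each). Psma5 averaged 1.30 ± 0.23, below the median of every array, so its probe set carried next to no signal. The other low members were Psmb3 at 3.52, the 11S subunit Psme2 at 4.25 and Psmb9 at 5.01. Levels of different probe sets are given on the array scale, which does not rank genes by amount of RNA. The remaining members averaged between 5.72 (Psmd14, the deubiquitinase of the lid) and 8.87 (Psmb1). The heat map of members by mouse shows that core subunits tended to be high or low together within a mouse.

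**Figure D1:**
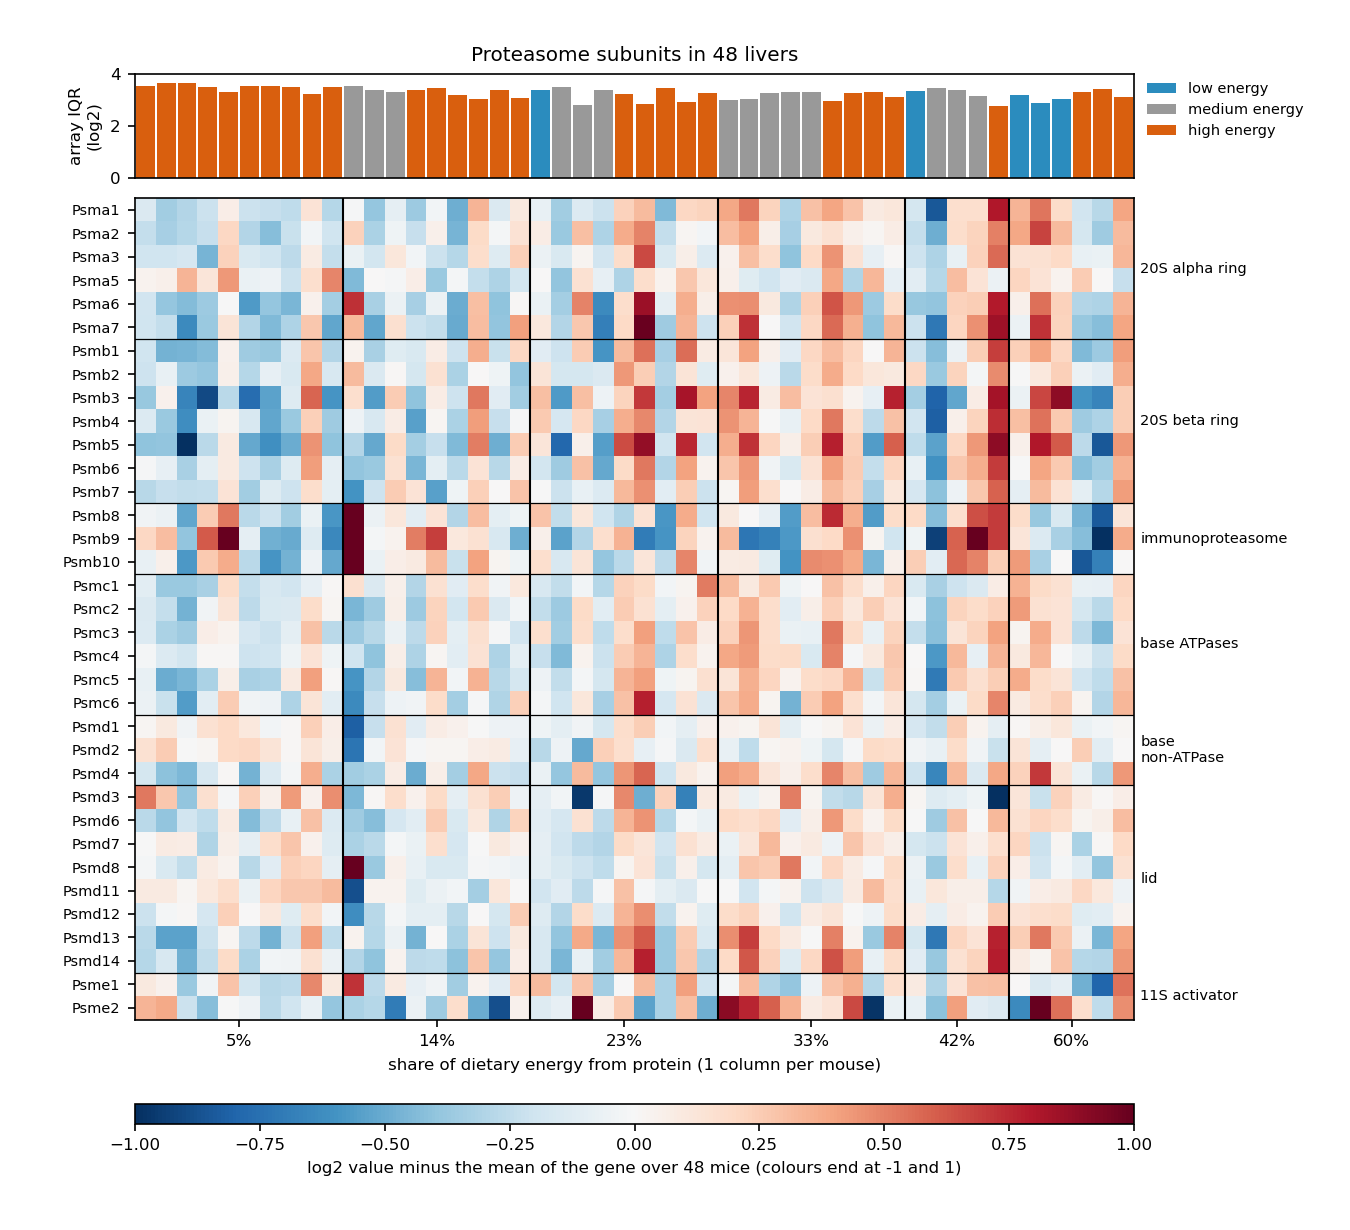
Each column is 1 mouse, ordered by protein share and then energy level, and each line is 1 proteasome subunit; colours give the log2 value minus the mean of the gene over 48 mice, and bars above give the array interquartile range in log2 units, coloured by energy level. Blue columns for the alpha and beta rings are common at 5% protein, and the single medium energy 14/29/57 mouse, first in the 14% block, is red for the immunoproteasome.

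The first comparison asked how the proteasome differed in livers of mice on very little protein. Most core subunits were lower at 5% protein than at higher protein shares within high energy, by 0.19 to 0.58 on the log2 scale for the 7 constitutive beta subunits. The difference is the mean of the 3 diets at 5% minus the mean of the 8 others, so that diets and not mice carry equal weight. By limma with Benjamini-Hochberg adjustment, 12 of 35 members fell and 1 rose, Psmd3. That is 13 of 35, beside 30.0% of all genes tested (18.4% upward and 11.6% downward). The median difference over members was -0.24, against -0.01 over all genes, and 29 of the 35 members had a lower mean. For all 35 members the 5% mice and the higher protein mice overlapped. Overlap was not counted over all genes, so this is no result about the members. In whole liver, fewer cells of a type and less RNA per cell cannot be told apart.

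In the beta ring, 5 of 7 subunits fell. Psmb5, which carries the chymotrypsin-like site, lay at 6.58, 7.21 and 8.06 (lowest, median and highest) in the 10 mice at 5% protein and at 6.77, 7.86 and 8.51 in the 19 at higher protein, a difference of -0.58 ± 0.19 (SE, limma adjusted p = 0.0233). In words, 9 of the 10 mice at 5% sat below the median of the others, but both groups spanned much the same range. The structural subunit Psmb1 lay at 8.40, 8.55 and 9.15 at 5% protein and at 8.43, 9.07 and 9.56 at higher protein (-0.44 ± 0.12, limma adjusted p = 0.00907). Psmb3, another structural subunit and a dim one, lay at 2.61, 3.06 and 4.10 at 5% protein and at 2.86, 3.60 and 4.35 at higher protein (-0.52 ± 0.17, limma adjusted p = 0.0259). Psmb7, which carries the trypsin-like site, lay at 8.48, 8.60 and 8.995 at 5% protein and at 8.28, 8.96 and 9.41 at higher protein (-0.30 ± 0.10, limma adjusted p = 0.0293). For each of these 3, again 9 of the 10 mice at 5% lay below the median of the higher protein mice. Psmb4 fell too, by 0.37 on the log2 scale. Psmb6, which carries the caspase-like site, lay at 7.74, 7.97 and 8.49 at 5% protein and at 7.61, 8.14 and 8.77 at higher protein and did not pass the test (-0.19 ± 0.13, limma adjusted p = 0.250), nor did Psmb2 (-0.22 ± 0.10).

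Of the 6 alpha ring subunits, 4 fell. Psma6 had the largest difference of the ring: it lay at 7.42, 7.61 and 8.03 at 5% protein and at 7.49, 8.04 and 8.85 at higher protein (-0.47 ± 0.13, limma adjusted p = 0.0111). All 10 mice at 5% were below the median of the higher protein mice, and the highest 5% mouse fell short of that median. Psma3, whose tail is part of the gate, lay at 9.08, 9.34 and 9.77 at 5% protein and at 9.26, 9.55 and 10.2 at higher protein (-0.30 ± 0.10, limma adjusted p = 0.0207). Here 8 of the 10 mice at 5% lay below the other group's median. Psma1 (-0.35 ± 0.12) and Psma2 (-0.31 ± 0.11) fell as well, and Psma7 differed by as much without passing (-0.42 ± 0.17, limma adjusted p = 0.0590).

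The regulatory particle was mixed. Among the ATPases of the base, Psmc1 fell: it lay at 7.59, 7.78 and 8.14 at 5% protein and at 7.66, 8.06 and 8.48 at higher protein (-0.29 ± 0.08, limma adjusted p = 0.00781, the smallest of all members). The other 5 ATPases had differences between -0.15 and -0.24 and did not pass. None of the 3 other base subunits passed: the ubiquitin receptor Psmd4 stood at -0.30 ± 0.13, and the scaffold subunits Psmd1 and Psmd2 stood at 0.07 ± 0.06 and 0.13 ± 0.07. In the lid, Psmd6 lay at 6.94, 7.15 and 7.67 at 5% protein and at 7.07, 7.48 and 7.82 at higher protein (-0.32 ± 0.10, limma adjusted p = 0.0148), and Psmd13 fell by 0.40. Psmd3, a scaffold of the lid, ran the other way: it lay at 6.51, 7.10 and 7.43 at 5% protein and at 5.73, 6.97 and 7.38 at higher protein (0.36 ± 0.12, limma adjusted p = 0.0214). Only 4 of the 10 mice at 5% were below the higher protein median of Psmd3, whose lowest mouse, at 5.73, was the single high energy 42/29/29 mouse. Without that mouse the difference of Psmd3 was 0.22 (limma adjusted p = 0.180) and the call was lost, as it was without replicate 1 of the high energy 5/20/75 diet. Psmd11, a lid subunit with a role in assembly, stood at 0.15 ± 0.06 (limma adjusted p = 0.0583).

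**Figure D2:**
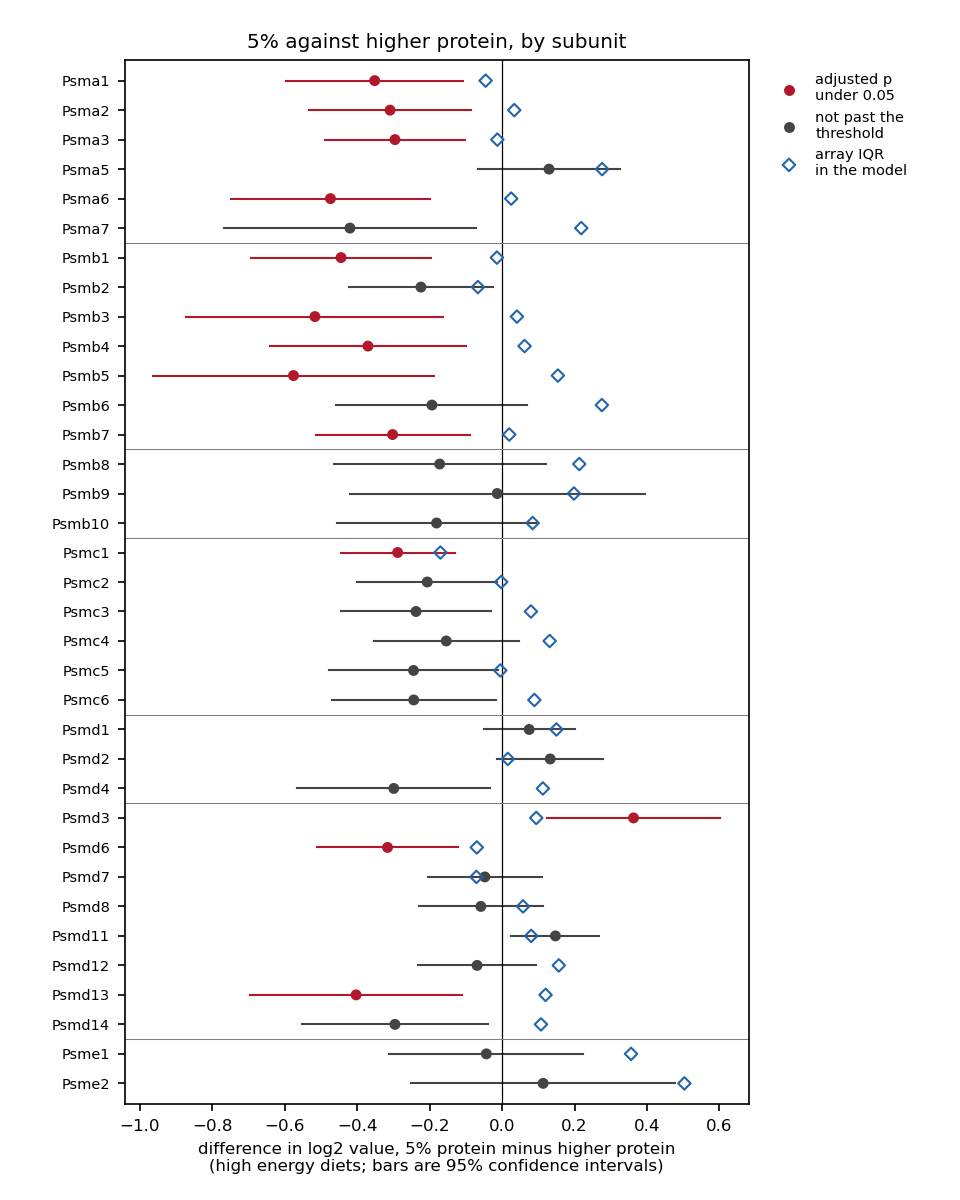
Differences in log2 value between 5% and higher protein at high energy for 35 subunits (filled circles, with 95% confidence intervals), red where the limma adjusted p was under 0.05, and the same differences with the array interquartile range as a term (open diamonds). Filled circles lie left of 0 for 29 subunits, and the diamonds gather around a median of 0.08.

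These calls moved with the spread of the arrays. With the IQR of each array as a term, 0 of 35 members passed (171 of all genes, 1.01%), the median over members was 0.08, and Psmb5 stood at 0.15 ± 0.14, Psmb1 at -0.01 ± 0.10 and Psmd3 at 0.09 ± 0.13 (limma adjusted p = 0.764, 0.981 and 0.866). A p that misses the threshold does not show that the groups are alike, and the part of the array spread in the differences cannot be told apart from that of the diet where both move together. Against the 14% diets alone as the other side, 0 members passed, with 72 of all genes passing and Psmb5 at -0.24 ± 0.25; that choice was made after seeing the data. Pooling the mice within high energy, 10 against 19, called 4 members, beside 2754 of all genes. Centring each array on its median called 8 (2 up and 6 down), with 3608 of all genes up and 1055 down, and quantile normalization called 16 (2 up and 14 down), with 2109 up and 2090 down, beside 3116 up and 1957 down as deposited. Single mice counted too: 2 members were called without replicate 2 of the high energy 5/20/75 diet, 4 without its replicate 1, and 4 without the single high energy 42/29/29 mouse, which had the smallest IQR of all arrays. The count over all genes moved as well, between 2709 and 5780 over the fits that each left out 1 mouse.

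Over all 48 mice the level of most core subunits followed the IQR of the array. Correlation with the IQR was not computed over all genes, so this is not shown to be particular to core subunits. Psmb5 had Pearson's r = -0.83 and Spearman's rho = -0.82 (each permutation p = 1e-05, the smallest that 100000 permutations can give, and adjusted p = 2.12e-05 and 2.83e-05 over 17 relations). Leaving out the 2 arrays with the most extreme IQR gave -0.86, and r was -0.79 in the 34 mice numbered under 300 in the labels, -0.94 in the 14 numbered over 300 and -0.87 in the 29 high energy mice. Psmd3 was positive, with r = 0.52 and rho = 0.36 (permutation p = 0.00012 and 0.0115, adjusted p = 0.000227 and 0.0178), falling to 0.32 without 2 arrays. It had 0.37 and 0.82 within the lower and higher mouse numbers. The inducible Psmb8 had r = -0.29 and rho = -0.37 (permutation p = 0.0461 and 0.00997, adjusted p = 0.0653 and 0.0169), -0.23 without 2 arrays, -0.47 without the medium energy 14/29/57 mouse, and -0.16 and -0.67 within the lower and higher numbers. Psmb9 had r = -0.03 and rho = -0.07 (permutation p = 0.828 and 0.655, also after adjustment), 0.01 without 2 arrays, and -0.03 and -0.14 within the lower and higher numbers.

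**Figure D3:**
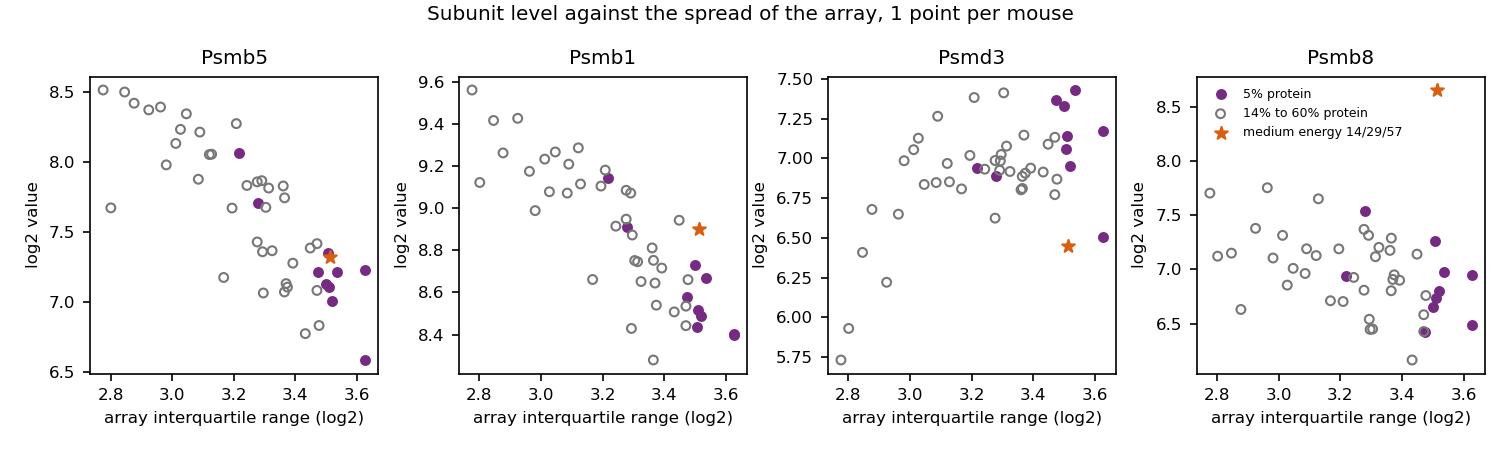
Log2 value of Psmb5, Psmb1, Psmd3 and Psmb8 (vertical axes) against the interquartile range of the array in log2 units (horizontal axes), 1 point per mouse, with the 5% protein mice filled and the single medium energy 14/29/57 mouse as a star. Psmb5 and Psmb1 fall along the axis (r = -0.83 and -0.84 over 48 mice), and 8 of the 10 mice at 5% protein lie at 3.47 or more on it.

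Across the whole range of protein shares most subunits had small positive slopes, and 1 of 35 passed, Psmd6, beside 7.01% of all genes tested (3.37% upward and 3.65% downward). A slope is the change in log2 value when protein supplies 10 more points of the energy, at the same cost to carbohydrate as to fat. Psmd6 averaged 7.21 ± 0.22 at 5% protein (SD, n = 10), 7.27 ± 0.25 at 14% (n = 9), 7.38 ± 0.26 at 23% (n = 9), 7.52 ± 0.15 at 33% (n = 9), 7.42 ± 0.28 at 42% (n = 5) and 7.53 ± 0.10 at 60% (n = 6). Its slope was 0.08 ± 0.02 (SE, limma adjusted p = 0.0257), and neighbouring shares overlapped. Psmb5 averaged 7.26 ± 0.40, 7.47 ± 0.37, 7.70 ± 0.58, 7.91 ± 0.40, 7.77 ± 0.56 and 7.75 ± 0.61 over the same shares, with the largest slope of the members, 0.10 ± 0.05, and did not pass (limma adjusted p = 0.157). The means of both genes were lowest at 5% and 14%. At 42% and 60% the means of both genes were below or close to those at 33%. Psma3 had the smallest p of the core (slope 0.06 ± 0.02, limma adjusted p = 0.0950) and Psmc2 that of the ATPases (0.05 ± 0.02, limma adjusted p = 0.142).

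The median slope over members was 0.05, against -0.00 over all genes, and 29 of 35 slopes were positive. They were not the same members as the 29 with a lower mean at 5% protein. Psmd1 and Psmd2, for example, had positive slopes and were higher at 5%. The 3 immunoproteasome genes all had slopes below 0, of -0.04 ± 0.04 for Psmb8, -0.06 ± 0.05 for Psmb9 and -0.03 ± 0.04 for Psmb10, and none passed (limma adjusted p = 0.559, 0.481 and 0.560). Without the medium energy 14/29/57 mouse the slopes were -0.01 for Psmb8, -0.03 for Psmb9 and -0.02 for Psmb10. They were nearest 0 without replicate 2 of the high energy 60/20/20 diet for Psmb8 (-0.0087) and Psmb9 (-0.02), and without its replicate 1 for Psmb10 (-0.0037). The Psmd6 call ended with arrays centred on their medians (0.06, limma adjusted p = 0.0517), with the IQR as a term (0.04, limma adjusted p = 0.482), in the high energy mice alone (0.07, limma adjusted p = 0.106), in the mice above 5% protein alone (0.06, limma adjusted p = 0.723, a choice made after seeing the data) and without replicate 3 of the high energy 60/20/20 diet. The log2 of the protein share in place of the share called 9 members, beside 3652 of all genes. Leaving out 1 mouse called 5 members without replicate 1 of the high energy 60/20/20 diet, 13 without its replicate 2, and 2 without replicate 3 of the medium energy 42/29/29 diet. The count over all genes moved too, between 588 and 3004 over the fits that each left out 1 mouse, so none of these counts is a result about the members.

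The immunoproteasome was then set against the constitutive subunits it replaces. None of its 3 genes passed between 5% and higher protein, and their ranges nearly coincided. Psmb8, counterpart of Psmb5, lay at 6.42, 6.87 and 7.54 at 5% protein and at 6.16, 6.96 and 7.75 at higher protein (-0.17 ± 0.14, limma adjusted p = 0.359, 95% confidence interval -0.46 to 0.12). Psmb9, counterpart of Psmb6, lay at 4.37, 4.90 and 6.11 at 5% protein and at 3.97, 5.12 and 5.71 at higher protein (-0.01 ± 0.20, limma adjusted p = 0.966, interval -0.42 to 0.39). Psmb10, counterpart of Psmb7, lay at 6.58, 6.998 and 7.55 at 5% protein and at 6.32, 7.20 and 7.66 at higher protein (-0.18 ± 0.14, limma adjusted p = 0.306, interval -0.46 to 0.09). Without the single high energy 42/29/29 mouse Psmb8 stood at -0.08 and Psmb9 at 0.08, neither passing. The 11S subunits did not pass either, at -0.04 ± 0.13 for Psme1 and 0.11 ± 0.18 for Psme2.

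The difference between an inducible gene and its counterpart within an array was tested for the 3 pairs with a two-sided permutation test (100000 permutations). Psmb8 minus Psmb5 lay at -1.12, -0.26 and -0.09 (lowest, median and highest) in the 10 mice at 5% protein and at -1.57, -0.81 and -0.22 in the 19 at higher protein. The means, -0.38 ± 0.33 and -0.76 ± 0.35 (SD), differed by 0.38 (permutation p = 0.00896, adjusted p = 0.0269 over 3 pairs), and 9 of the 10 mice at 5% lay above the median of the others. This difference also moved with the IQR of the array (r = 0.59 over 48 mice), whose part in it was not tested. Psmb9 minus Psmb6 differed by 0.11 (permutation p = 0.584) and Psmb10 minus Psmb7 by 0.06 (permutation p = 0.646), with adjusted p = 0.646 for both. The comparison sets the deposited values of 2 probe sets against each other, without a term for the IQR. The scale of each probe set enters it.

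**Figure D4:**
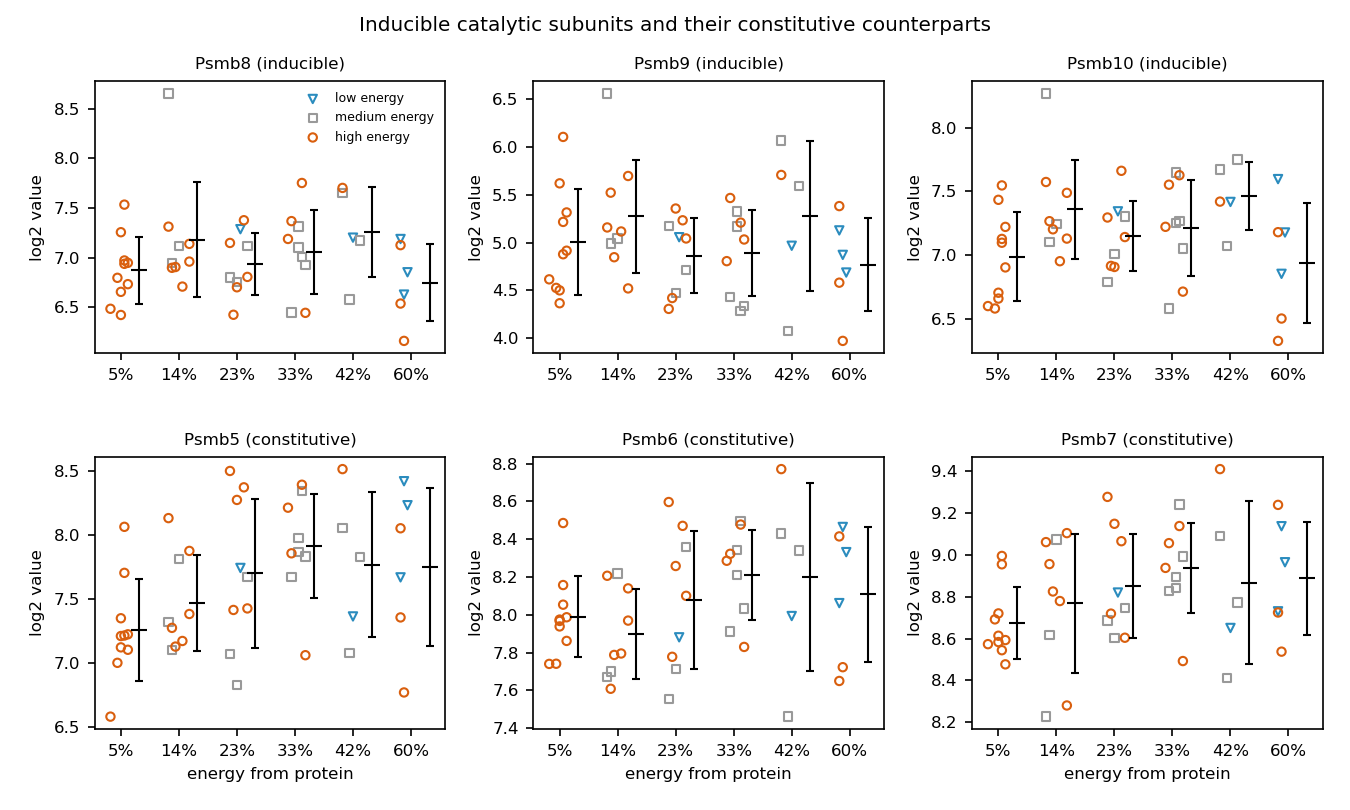
Log2 value of the 3 inducible catalytic subunits (top) and their constitutive counterparts (bottom) by share of energy from protein, 1 symbol per mouse with shape and colour for energy level; bars are means ± SD over all mice of a share. Psmb5 is lowest at 5% protein (7.26 ± 0.40), and Psmb8, Psmb9 and Psmb10 are highest in 1 medium energy mouse at 14%.

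Exchanging carbohydrate for fat called 0 members and 0 genes in all (percentage called 0), where 4 members and 665 of all genes had an unadjusted p under 0.05. The slope is the change in log2 value for 10 points of energy moved from fat to carbohydrate. All 3 immunoproteasome genes were lower with more carbohydrate, without passing: -0.08 ± 0.04 for Psmb8, -0.13 ± 0.05 for Psmb9 and -0.08 ± 0.04 for Psmb10 (SE, limma adjusted p = 0.999 for each). Their 11S partner Psme2 stood at -0.11 ± 0.05 and the lid subunit Psmd11 at 0.05 ± 0.02 (limma adjusted p = 0.999). Without the medium energy 14/29/57 mouse Psmb8 stood at -0.05, Psmb9 at -0.10 and Psmb10 at -0.06. Many other lists ran the same way, with slopes below 0 for 8 of 8 macrophage markers (median -0.15), 3 of 3 pan-leukocyte markers (median -0.17, 2 with an unadjusted p under 0.05) and 14 of 14 interferon-stimulated genes (median -0.09), beside 8101 of 16926 genes in all. Slopes were also below 0 for 5 of 5 endothelial, 5 of 5 stellate, 5 of 5 B and plasma cell, 3 of 3 neutrophil and 7 of 9 T and NK cell markers. Hepatocyte (4 of 7) and cholangiocyte markers (1 of 4) were split. These slopes include the medium energy 14/29/57 mouse, which was highest of 48 in all 8 macrophage and all 3 pan-leukocyte markers. The part of these other cells in the slopes of the immunoproteasome was not tested. At 5% protein, Psmb9 ranged from 4.37 to 4.88 in the 4 mice on 5/75/20, from 4.62 to 6.11 in the 4 on 5/48/48, and stood at 5.22 and 5.32 in the 2 on 5/20/75. The 5/75/20 mice were the low ones and overlapped only the 5/48/48 mice. The median slope over members was -0.00, as over all genes at 0.00, and no setting called a member.

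Energy level also called 0 members. High minus medium energy, in the model with all 48 mice, called 0 genes in all (percentage called 0), where 2 members and 1376 of all genes had an unadjusted p under 0.05. Those members were Psmd11, at 8.56, 8.99 and 9.22 (lowest, median and highest) in the 29 high energy mice and 8.02, 8.89 and 9.01 in the 14 medium energy mice (0.15 ± 0.07, limma adjusted p = 0.577), and the scaffold Psmd2, at 8.04, 8.28 and 8.51 in high energy and 7.52, 8.22 and 8.50 in medium energy mice (0.13 ± 0.07, limma adjusted p = 0.614). The lowest medium value of both was the single 14/29/57 mouse, and without it the differences were 0.09 for Psmd11 and 0.08 for Psmd2 (limma adjusted p = 0.999 for both). Psmb10 had 6.32, 7.14 and 7.66 in high energy and 6.58, 7.25 and 8.27 in medium energy mice, a difference of -0.19 ± 0.12 (limma adjusted p = 0.722) that was -0.12 without the same mouse.

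At the 60/20/20 diet, low energy was compared with high energy, 3 mice against 3, and 0 members and 0 genes in all passed (percentage called 0), where 2 members and 1710 of all genes had an unadjusted p under 0.05. Means were higher at low energy for 32 of 35 members, with a median difference of 0.23, against -0.03 over all genes. Psma2, an alpha ring subunit, had 8.60, 8.67 and 8.96 in the low energy mice and 7.93, 8.11 and 8.61 in the high energy mice (0.53 ± 0.22, limma adjusted p = 0.438). Psmb3 had 3.46, 4.19 and 4.41 in the low energy mice and 2.86, 2.92 and 3.77 in the high energy mice (0.84 ± 0.34, limma adjusted p = 0.438). Psmb5 had 7.67, 8.23 and 8.42 at low energy and 6.77, 7.36 and 8.05 at high energy (0.71 ± 0.37, limma adjusted p = 0.520). In each of the 3 genes 1 high energy mouse reached into the range of the low energy mice. Psmb10 had 6.85, 7.18 and 7.60 at low energy and 6.32, 6.50 and 7.18 at high energy (0.54 ± 0.27, limma adjusted p = 0.496). Single mice moved these differences: Psmb5 stood at 0.40 without high energy replicate 2 and 1.04 without high energy replicate 3, and Psmb10 at 0.35 without low energy replicate 1 and 0.80 without high energy replicate 3, with no call in any of these fits. The array IQR averaged 3.03 ± 0.16 in the low energy mice and 3.28 ± 0.16 in the high energy mice (SD). With the IQR as a term 0 members passed, as without it. With so few mice the part of the array spread in these differences cannot be told apart from that of the energy level.

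Any difference among the 20 combinations was tested with a moderated F statistic, which passed for 2 of 35 members beside 13.3% of all genes. Both are lid subunits: Psmd11 (F = 3.99, limma adjusted p = 0.00411) and Psmd8 (F = 2.83, limma adjusted p = 0.0360). Group means of Psmd11 ran from 8.02 in the medium energy 14/29/57 mouse and 8.62 in the high energy 42/29/29 mouse to 9.14 on high energy 33/47/20 (n = 2) and 9.17 on high energy 5/75/20, where 4 mice lay between 9.11 and 9.21. Psmd8 was at 9.98 in the medium energy 14/29/57 mouse, while all others lay between 8.35 and 9.27. Without that mouse 0 members passed, with 153 of all genes passing. One member passed without replicate 1 of high energy 33/20/47 or without replicate 2 of high energy 5/20/75. With the IQR as a term 5 passed: Psmd11, Psmd8, Psmb8, Psma6 and Psmd1. The share over all genes in that fit is not given here, so the count is no result about the members. The medium energy 14/29/57 mouse was the highest of 48 in Psmd8 and Psmb8 and the lowest in Psmd11 and Psmd1. In Psma6 it ranked 46 from the lowest.

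The medium energy 14/29/57 mouse had the highest value of 48 mice in all 3 immunoproteasome genes and among the lowest in much of the regulatory particle. Psmb8 stood at 8.66, against 6.16 to 7.75 in the other 47 mice, Psmb9 at 6.56, against 3.97 to 6.11, and Psmb10 at 8.27, against 6.32 to 7.75. Psme1, a subunit of the interferon-inducible 11S cap, was highest too, at 8.70, against 7.19 to 8.52. Its partner Psme2 was not, at 3.93 within the others' 3.26 to 5.42. In the opposite direction, the mouse was lowest of all in Psmd1 (7.47, against 8.05 to 8.54), Psmd2 (7.52, against 7.75 to 8.51), Psmd11 (8.02, against 8.56 to 9.22) and Psmd12 (7.61, against 7.95 to 8.70). It was also lowest in Psmb7 and Psmc6, and in Psma5, whose probe set carried next to no signal. In the regulatory particle the lid subunit Psmd8 was instead highest of 48, at 9.98, against 8.35 to 9.27. Psmc1 ranked 35 and Psmd13 28 from the lowest. Psmb5, at 7.32, and Psmb1, at 8.90, sat inside the range of the others. One mouse allows no test, and these genes were named after their values were seen.

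Markers of other cells moved in the same mouse. All 8 macrophage markers and all 3 pan-leukocyte markers were at their highest of 48 there, among them the lysosomal protein Cd68 at 11.3, against 3.93 to 7.27 in the others, and the phosphatase Ptprc at 9.03, against 3.48 to 7.35. The neutrophil genes S100a8, S100a9 and Mpo were highest too, while Ly6g was not. The mean of 9 T and NK cell markers was 4.41, against 1.95 to 3.64 in high energy mice. Cd3e, Cd3g, Nkg7, Ccl5 and Gzma were highest of 48, whereas Cd4 ranked 10 and Klrb1c 18 from the lowest. Endothelial markers split, with Lyve1 and Pecam1 highest and Clec4g lowest, and so did stellate markers, with Dcn highest and Reln lowest. The 7 hepatocyte markers averaged 11.97, below every high energy mouse, with Ttr, the plasma carrier transthyretin, at 11.9, against 12.63 to 12.99. Of 10 class I presentation genes, Tap1, Tapbp and B2m were highest, while the peptide-trimming enzyme Erap1 was lowest, at 6.77, against 7.05 to 7.91, and the chaperone Calr, at 10.95, was near the low end of 10.85 to 11.61. Of 15 interferon-stimulated genes 6 were highest, among them Irf7 at 9.45, against 5.89 to 7.48, whereas Iigp1, at 9.50, against 8.97 to 10.66, and Ifit3 and Irgm2 lay in the lower part of their ranges. The ATPase Vcp, which extracts ubiquitylated proteins for the proteasome, was lowest, at 7.95, against 8.37 to 9.69. The part of these other cells in the proteasome values was not tested.

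**Figure D5:**
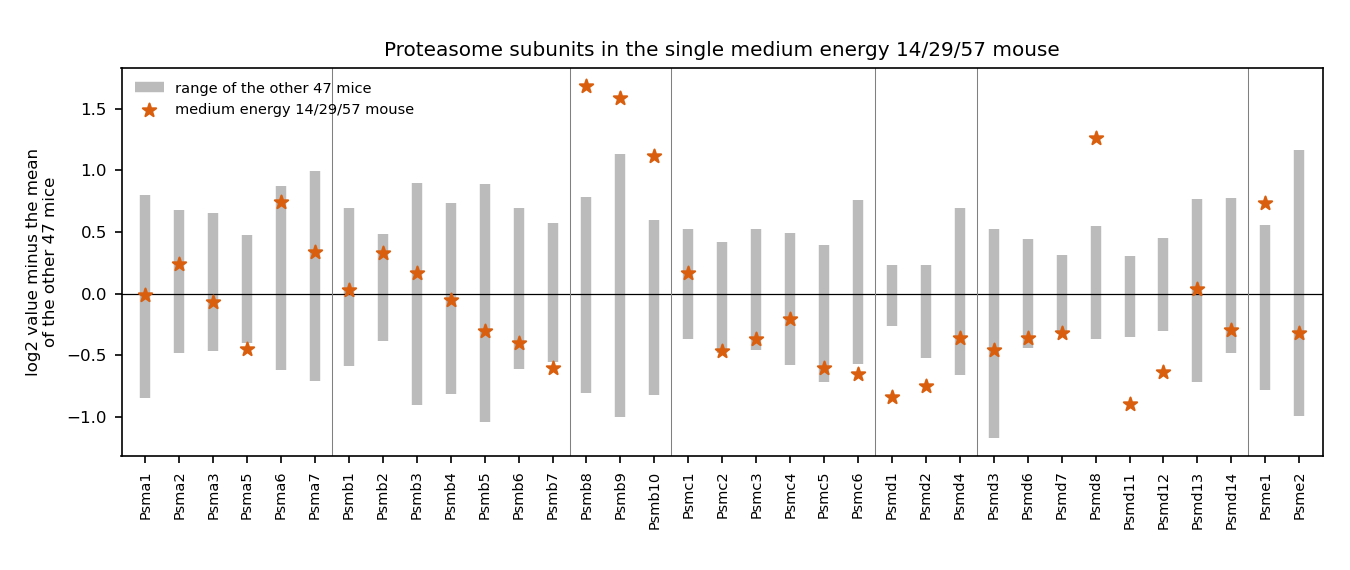
Log2 value of each subunit in the single medium energy 14/29/57 mouse (stars) and the range of the other 47 mice (grey bars), both as the difference from the mean of the other 47. The star is above the grey bar for Psmb8, Psmb9, Psmb10, Psmd8 and Psme1 and below it for 7 subunits. These 7 include Psma5, whose probe set carried next to no signal.

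Over the 48 mice the core subunits varied together, and the immunoproteasome genes varied with each other. These correlations are across mice on different diets, each with its own array, and the arrays differed in IQR. They are given as a description for the 34 members other than Psma5. The median r over 66 pairs of core subunits was 0.80, and it was 0.55 after the IQR was taken out of each gene. For the 3 pairs of immunoproteasome genes it was 0.74, and 0.77 after the IQR was taken out, whereas for the 36 pairs of a core and an immunoproteasome gene it was 0.41 and 0.39. Pairs within the base had 0.62 and pairs within the lid 0.27, where the lowest pair reached -0.44.

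Psmb8 and Psmb10 were the closest of the inducible genes, with r = 0.89 and rho = 0.92 (each permutation p = 1e-05, adjusted p = 2.12e-05 and 2.83e-05). Without the 2 mice farthest from the median of the first-named gene, meant by 2 mice below, r was 0.88. It was 0.88 without the medium energy 14/29/57 mouse, and 0.89 and 0.90 in mice numbered under and over 300. Psmb8 and Psmb9, which lie near each other on chromosome 17, had r = 0.74 and rho = 0.65 (each permutation p = 1e-05, adjusted p = 2.12e-05 and 2.83e-05), 0.69 without 2 mice, and 0.77 and 0.73 within the lower and higher numbers. Psmb8 and Psme1 had r = 0.78 and rho = 0.77 (same p), 0.75 without 2 mice, and 0.82 and 0.65 within numbers. The counterparts Psmb5 and Psmb8 had r = 0.44 and rho = 0.54 (permutation p = 0.00129 and 0.00013, adjusted p = 0.00219 and 0.000246), 0.36 without 2 mice, 0.60 without the medium energy 14/29/57 mouse, and 0.40 and 0.68 within numbers. It was 0.19 in the 24 mice whose Y-linked genes were above Xist and 0.77 in the other 24, a difference that was not tested. The medium energy 14/29/57 mouse is among the former 24 and among the mice numbered under 300. These splits were not repeated without it, so they set a part that holds it against a part that does not. Psmb6 and Psmb9 had r = 0.21 and rho = 0.22 (permutation p = 0.161 and 0.136, adjusted p = 0.196 and 0.154), 0.08 without 2 mice, 0.32 without the medium energy mouse, and 0.26 in both number ranges, but -0.09 and 0.52 by Y-linked genes above and below Xist. Psmb7 and Psmb10 had r = 0.16 and rho = 0.30 (permutation p = 0.267 and 0.0378, adjusted p = 0.283 and 0.0494), 0.33 without 2 mice, 0.35 without the medium energy mouse, 0.06 and 0.52 within numbers, and -0.01 and 0.53 by Y-linked genes. Psmb8 and the leukocyte gene Ptprc had r = 0.45 and rho = 0.30 (permutation p = 0.00306 and 0.0378, adjusted p = 0.00473 and 0.0494). Here r was 0.15 without 2 mice, 0.17 without the medium energy 14/29/57 mouse, and 0.57 and -0.16 within numbers. So r was lower without those mice, and rho was not recomputed without them. Psmb9 and the peptide transporter Tap1 had r = 0.58 and rho = 0.56 (permutation p = 1e-05 and 2e-05, adjusted p = 2.12e-05 and 4.86e-05), 0.43 without 2 mice, and 0.51 and 0.66 within numbers.

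Of 7 measured regulators of proteasome genes, 4 rose and 0 fell at 5% protein (57.1%, beside 18.4% of all genes upward). This list was chosen with earlier results of these data known, so the share is a description. Ngly1 stood at -0.11, Keap1 at 0.17 and Mafk at 0.29, and none of these passed. Nfe2l1, the transcription factor that drives proteasome genes when proteasome activity falls short, lay at 6.47, 6.998 and 7.18 in the 10 mice at 5% protein and at 5.61, 6.30 and 7.19 in the 19 at higher protein (0.69 ± 0.17, limma adjusted p = 0.00473). Nfe2l2, which acts through the antioxidant response element, lay at 7.67, 8.08 and 8.42 at 5% protein and at 6.81, 7.49 and 8.13 at higher protein (0.68 ± 0.13, limma adjusted p = 0.000854). The groups overlapped for both, and the 5% mice filled the upper part of the range. The small Maf proteins Maff (0.83 ± 0.22) and Mafg (0.57 ± 0.20) rose too. Nfe2l2 and Maff fell along the protein share, by 0.15 and 0.21 for 10 points (limma adjusted p = 0.00437 and 0.0135). With the IQR as a term none of the 7 passed, and Nfe2l2 stood at 0.31 ± 0.13 and Nfe2l1 at 0.05 ± 0.13. Neither gene passed against 14% alone.

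Of 19 measured assembly factors and partners, 3 fell and 3 rose at 5% protein, 15.8% in each direction, which is near the share over all genes (18.4% upward and 11.6% downward) and is no result about this list. Those that fell were the base chaperones Psmd9 (-0.44 ± 0.12, limma adjusted p = 0.00775) and Psmd10 (-0.50 ± 0.16) and the core maturation factor Pomp (-0.40 ± 0.14). Those that rose carry or extract ubiquitylated substrates: Ubqln1 (0.45 ± 0.11, limma adjusted p = 0.00395), Rad23b (0.29 ± 0.08) and Vcp (0.27 ± 0.10). Psmd9 was also the 1 of the 19 that rose along the protein share (0.12 ± 0.03 for 10 points, limma adjusted p = 0.00966). None of the 19 passed with the IQR as a term.

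Class I presentation and interferon genes rose in part at 5% protein, where the immunoproteasome genes did not pass. The lists named here were chosen with earlier results of these data known, so their shares are descriptions. Of 10 class I genes, 4 rose (40%, beside 18.4% of all genes upward), among them Nlrc5, the activator of class I genes, at 2.03, 4.18 and 4.73 at 5% protein and 1.62, 2.69 and 3.77 at higher protein (1.22 ± 0.31, limma adjusted p = 0.00536). The peptide loading factor Tapbp (0.34 ± 0.13) and the class I light chain B2m (0.14 ± 0.05) also rose. Of 14 interferon-stimulated genes 7 rose (50%), with Ifit2 (0.66 ± 0.13) and Oasl2 (1.04 ± 0.23) at the smallest p. Beside these, 2 of 8 macrophage, 3 of 9 T and NK cell, 2 of 3 pan-leukocyte, 2 of 5 endothelial and 4 of 5 stellate cell markers rose and none of these markers fell; the macrophage share, 25%, is near that over all genes. Of the markers of B and plasma cells (5), cholangiocytes (4) and neutrophils (3 tested) none passed. Of 7 hepatocyte markers 1 fell as deposited, Serpina1c, whereas after quantile normalization 3 rose (Alb, Ahsg and Fgb) and none fell. After quantile normalization 3 regulators, 2 class I genes, 5 interferon-stimulated genes and 0 macrophage markers still passed upward, and 1 interferon-stimulated gene, Ifit3, passed downward. The mean of the 8 macrophage markers ran from 5.19 to 7.24 at 5% protein and from 5.21 to 8.14 at higher protein. With the IQR as a term none of the genes of these lists passed. The part of the other cell types in the values of the inducible subunits was not tested.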

How the data were processed

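Total liver RNA was labelled and hybridised to Affymetrix arrays, per the labels' protocols. The deposited log2 values of 41345 probe sets (-0.51 to 13.42) were used as the authors deposited them; the log2 scale was read from their range, and the labels and files used here do not state background correction, normalization, software or genome build. Gene names came from the platform annotation (23521 probe sets with 1 symbol, 1814 with several, 16010 unlisted). A gene was its single-symbol probe set of highest mean. Of 22180 genes, 16926 had a mean above 1.17, the 30th percentile of probe set means, and were tested. Groups came from the labels; the labels do not give a cage for a mouse, so p-values measure the spread between these mice. Arrays give no counts, so their number limits precision.

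Limma 3.58.1 in R 4.3.3 (lmFit, eBayes with trend) was fitted across all genes, two-sided, with Benjamini-Hochberg adjustment and a threshold of 0.05. The model of slopes held protein share, carbohydrate against fat and energy level; the other contrasts used 1 mean per combination. Permutation tests used scipy 1.17.1 and numpy 2.4.6 in Python 3.11.15. The code was tested on simulated data. Genes given with full values were members past the threshold, the immunoproteasome and its counterparts, and the members or listed genes of smallest p in each group; exceptions are named as such. Members and lists were chosen with earlier results of these data known. Alternatives covered the filter, the probe set, centring, quantile normalization, the trend, array weights, terms for IQR, sex (Y-linked minus Xist) and mouse number, blocking, subsets of mice and leaving out each mouse. Labels carry no replicate numbers, so replicates were numbered in accession order.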

Additional observations from a re-analysis of the deposited data

Results flagged for a closer look

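In 3 groups of 4 mice, 105 combinations of a gene and a group were examined for a mouse far from the other 3, and 4 stood out (3.81%), where chance gives about 1 in 20. Psma2 was 8.49 in replicate 2 of the high energy 5/48/48 diet, and 7.99 to 8.06 in the other 3 mice. In the high energy 5/75/20 diet, replicate 1 was the high mouse for 3 genes: Psma1 at 7.39, with the others at 6.97 to 7.02, Psmb2 at 6.66, with the others at 6.12 to 6.19, and Psmd14 at 5.87, with the others at 5.66 to 5.69. The array of that mouse had the smallest interquartile range of the 5% protein mice, 3.22. Its part in the values of these genes was not tested.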

How the results depend on the processing

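The carbohydrate against fat slope and both energy comparisons called 0 members under every alternative run and without each mouse in turn. The protein slope called 1 member as reported, 0 with arrays centred on their medians, with the IQR as a term, in high energy mice alone and in mice above 5% protein alone, 2 with mouse number over 300 as a term, 9 with the log2 of the share and 16 with array weights, and between 0 and 13 without 1 mouse. The 5% comparison called 13 members as reported, 8 after centring, 21 with array weights, 4 with mice pooled, between 2 and 19 without 1 mouse, and 0 with the IQR as a term, with IQR and sex terms, against 14% protein alone and without the 12 arrays of smallest IQR (the last 3 chosen after seeing the data). It kept the same 13 with no filter, with probe sets averaged, without the trend, and with sex or mouse number as a term. The test of any difference called 2 as reported, 1 after centring, 5 with the IQR term, 25 with array weights and between 0 and 3 without 1 mouse. With the IQR as a term, the difference at 5% protein turned positive for Psma2 (0.034), Psma6 (0.025), Psmb3 (0.041), Psmb4 (0.062), Psmb5 (0.15), Psmb7 (0.020) and Psmd13 (0.12), and with IQR and sex terms for Psma2 (0.025), Psma3 (0.0051), Psma6 (0.056), Psmb1 (0.0026), Psmb3 (0.075), Psmb4 (0.037), Psmb5 (0.11) and Psmd13 (0.097); the cause was not tested. Over all genes, the protein slope called 1187 as reported, 113 with the IQR term, 630 with the combination as a random block, 3652 with the log2 share, 4301 with array weights and 14 above 5% protein. The 5% comparison called 5073 as reported, 171 with the IQR term, 165 with IQR and sex terms, 2754 with mice pooled, 287 without the 12 arrays, 72 against 14% protein and 7851 with array weights. The test of any difference called 2255 as reported and 7891 with array weights, and its count over all genes with the IQR term is not given here. Without 1 mouse, the genes called in all ran from 588 to 3004 for the protein slope. They ran from 2709 to 5780 for the 5% comparison and from 153 to 2778 for the test of any difference. No paired analysis was possible because the labels give no replicate numbers shared between groups. Psma5 lies near background and limits its own value.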
